A study of Mus musculus with 7 samples.

Results

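Ncald, the gene of the neuronal calcium sensor neurocalcin delta, was followed with 8 further calcium sensor genes in the cortex of mouse embryos at E18.5. The 9 genes were chosen by name as relatives or functional neighbours of Ncald, which had been picked for its lower level in the mutant embryos. All 9 of 9 were among the 23413 gene symbols of the tables. For each of them UMIs (unique molecular identifiers, which count captured transcripts) were summed over the 23005 of 50191 cell barcodes that had at least 500 detected genes and at most 10% mitochondrial UMIs.

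The cortices came from 7 embryos of 1 litter, each giving 1 Seq-Well library, in which single cells are caught with barcoded beads in an array of wells. The 4 mutant embryos (replicates 10, 11, 12 and 17) had the genotype Emx1CreERT2;Ash1lfl/fl, that is, both alleles of the histone methyltransferase gene Ash1l floxed and a tamoxifen-dependent Cre recombinase driven from Emx1. The 3 control embryos (replicates 14, 15 and 16) were Ash1lfl/fl without the Cre. The dam, also Ash1lfl/fl, received 100 mg/kg tamoxifen at E10.5, so mutants and controls shared the drug and the floxed alleles. Emx1 is active in the progenitors of the dorsal forebrain, which make the glutamatergic neurons of the cortex, whereas most GABAergic neurons migrate in from ventral progenitors that lack Emx1. The share of cells in which the alleles had recombined was not measured. The labels name neither sex nor batch, and with 1 library per embryo the p-values below cover the spread between these embryos.

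Neuronal calcium sensor proteins carry EF-hand loops that bind calcium. In neurocalcin delta, hippocalcin and the visinin-like proteins, a fatty acid attached to the glycine behind the first methionine is hidden at rest and swings out when calcium binds, which moves the protein to membranes. Calmodulin instead wraps around its target proteins, and the NECAB proteins join an EF-hand domain to a domain of a different kind. In the cortex these proteins link calcium entry to ion channels, membrane traffic and receptor signalling.

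The first 60 coding bases are shown because they hold that amino-terminal signal and show how near the relatives of Ncald are to it at the DNA level. Capitals mark bases that differ from Ncald at the same position, counted in transcripts of GENCODE vM21 (GRCm38) from the start codon, 5′ to 3′.
Ncald: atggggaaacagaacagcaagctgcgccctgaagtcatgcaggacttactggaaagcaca
Hpca: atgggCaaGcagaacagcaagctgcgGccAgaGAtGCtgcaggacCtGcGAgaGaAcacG
Hpcal1: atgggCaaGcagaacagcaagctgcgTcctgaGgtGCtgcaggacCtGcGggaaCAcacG
Hpcal4: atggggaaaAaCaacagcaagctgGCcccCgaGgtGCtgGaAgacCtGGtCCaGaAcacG
Vsnl1: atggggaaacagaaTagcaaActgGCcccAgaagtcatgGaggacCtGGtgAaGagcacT
Ncs1: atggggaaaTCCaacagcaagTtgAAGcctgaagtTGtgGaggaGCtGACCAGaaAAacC

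Over these 60 bases Hpcal1 and Vsnl1 each differed from Ncald at 12 positions, Hpca at 15, Hpcal4 at 18 and Ncs1 at 21. Over the whole coding sequence, identity to Ncald was 80.2% for Hpcal1, 79.5% for Hpca, 69.4% for Vsnl1, 67.6% for Hpcal4 and 63.0% for Ncs1. Calm2 (44.7%), Necab1 (35.8%) and Necab2 (32.9%) were more distant. None of the 36 pairs of the 9 genes shared a run of 50 identical bases in any annotated transcript, so no read of that length can match a pair of them exactly. Exons of Ncald overlap the antisense gene Gm28221 and the same-strand transcript Gm49397. Exons of Hpca overlap Tmem54 and those of Necab1 overlap the antisense gene Gm11837, both on the opposite strand. The strand setting of the counting is not given in the sources used here, so UMIs of these 3 sensors cannot be told apart from UMIs of the overlapping genes.

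In mm10 coordinates, Ncald lies at chr15:37366175-37792570 on the minus strand. Hpca (chr4:129111570-129122036, minus), Hpcal4 (chr4:123183227-123194701, plus) and Necab1 (chr4:14952245-15149794, minus) share chromosome 4. Vsnl1 (chr12:11325242-11436613, minus) and Hpcal1 (chr12:17690856-17791933, plus) share chromosome 12. Ncs1 lies at chr2:31245823-31295989 (plus), Necab2 at chr8:119446719-119472640 (plus) and Calm2 at chr17:87433412-87446935 (minus).

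Libraries held 7083225 to 11859209 UMIs, of which 5316785 to 9460628 lay in kept cells. Cells were put into types by marker gates: a cell needed at least 2 UMIs over a list of marker genes, and the other lists at most 0.5 times as many. None of the 9 sensors was a gate marker. The gates held 8598 glutamatergic neurons (1418 upper-layer, 685 deep-layer, 2824 migrating and 3671 with no finer gate), 1396 GABAergic neurons, 3893 progenitors, 367 Cajal-Retzius cells and 75 oligodendrocyte precursors, and 8514 cells (37.0%) fell in none. Marker genes held out of the gates were partly in place. All 5 held-out deep-layer markers were higher in the deep-layer gate than in the upper-layer gate, and 3 of 5 held-out upper-layer markers were higher in the upper-layer gate, Rorb and Cdh13 being the exceptions. The migrating gate was less distinct. Of its 4 held-out markers Plxna4 was higher in upper-layer neurons (520 CPM against 254) and Dcx in deep-layer and GABAergic neurons, while the deep-layer markers Crym and Nfia were higher in the migrating gate (454 against 308 and 277 against 208). Doublets were not removed, and 24 of 22967 distinct barcodes occurred in more than 1 library. Median UMIs per cell were 1388 ± 228 (SD, n = 4) in mutants and 1638 ± 431 (SD, n = 3) in controls. Ash1l itself, the targeted gene, stood in glutamatergic neurons at 141, 141, 148 and 121 CPM (UMIs of a gene scaled to a common total per library) in mutants 10, 11, 12 and 17 and at 166, 197 and 203 in controls 14, 15 and 16. Its genotype groups did not overlap, and the log2 difference was −0.45 (edgeR adjusted p = 0.20), with transcript that is still made from the floxed gene counted too. In GABAergic neurons that difference was −0.24 (SE 0.20, edgeR adjusted p = 0.83), and in the interneurons among them −0.43 (SE 0.22, adjusted p = 0.72). The effect in glutamatergic minus GABAergic neurons was −0.17 (SE 0.17, adjusted p = 0.99), so the 2 classes were not shown to differ in it.

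Levels by cell type are given in CPM of the UMIs in a gate, as the mean ± SD over the 7 embryos of both genotypes with the lowest, median and highest embryo. They compare cell types within a gene. Each sensor had its own order of cell types, and the plot of levels by gate shows all 9. Among the 6 gates of that plot, Ncald was highest in upper-layer neurons and low in GABAergic neurons, Hpca was highest in migrating neurons, Necab1 stood far higher in deep-layer neurons than in any other gate, and Calm2 was highest in deep-layer neurons.

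Ncald, whose product also binds clathrin and takes part in endocytosis, stood at 128 ± 38.1 CPM in upper-layer neurons (79.3, 116 and 178). It stood at 89.8 ± 37.4 in deep-layer neurons (49.0, 84.8 and 151) and at 79.2 ± 12.5 in progenitors (62.2, 77.1 and 94.0). Cajal-Retzius cells, the early reelin-making neurons of the cortical surface, had 46.7 ± 22.2 CPM, migrating excitatory neurons 42.0 ± 19.98 and GABAergic neurons 24.5 ± 13.8. Among these 6 gates upper-layer neurons were the highest in 6 of 7 embryos. Deep-layer neurons and progenitors did not differ beyond their spread, the former being higher in 4 of 7 embryos, nor did Cajal-Retzius and migrating neurons, with 3 of 7. Migrating neurons were above GABAergic neurons in 7 of 7.

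Ncald UMIs were not limited to neurons. Within the progenitor gate, cells with a UMI of Slc1a3 and none of Eomes or Neurog2 (markers of radial glia and of intermediate progenitors) had 96.8 CPM when pooled, and cells with Eomes or Neurog2 had 66.9. Cells with the division genes Mki67 or Top2a had 73.9 and those without 85.8. By embryo these subsets overlapped. The Slc1a3 cells ran from 67.9 to 128 CPM and the Eomes or Neurog2 cells from 55.2 to 84.2. Cells with division genes ran from 43.9 to 103 (median 74.9) and those without from 60.7 to 120 (median 76.6). The highest value of any gate was in oligodendrocyte precursors, with 93 UMIs in 75 cells, or 611 CPM (95% exact Poisson interval 493 to 749). By embryo these cells had 406, 986, 210 and 1273 CPM in mutants 10, 11, 12 and 17 and 711, 207 and 855 in controls 14, 15 and 16. Each embryo had few such cells, the genotypes overlapped, and no test was made. Precursors with a UMI of Pdgfra, their receptor marker, had 711 CPM (53 cells, 87 UMIs) and those without it 201 (22 cells, 6 UMIs). By embryo they ran from 151 to 2487 and from 0 to 821, which overlapped.

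At the other end, the 61 striatal-type neurons had 0 Ncald UMIs among 154865, where 3 counts would be 19.4 CPM. Microglia had 2 UMIs (18.53 CPM, interval 2.24 to 66.9). Vascular cells had 19 UMIs (95.5 CPM, interval 57.5 to 149), and these intervals overlap. All these intervals cover counting error only. Cells with at least 1000 UMIs were thinned to 1000, and cells with fewer were left out. A Ncald UMI was then found in 10.2% of 1078 upper-layer, 7.59% of 593 deep-layer and 6.86% of 2917 progenitor cells. It was found in 2.94% of 2382 migrating and 2.48% of 1008 GABAergic cells. It was found in 1 of 30 microglia (3.33%), too few cells to set a level of background. Pooled, the migrating neurons had 328 Ncald UMIs, or 43.6 CPM (interval 39.0 to 48.6), above the interval of the striatal-type neurons, which ends at 23.8. Without thinning, and over all cells of each gate, the shares were 15.4%, 16.4%, 12.0%, 7.29% and 3.08% in the same order of gates, and 4.65% of microglia.

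Hpca, which encodes hippocalcin, a sensor studied in long-term depression and in the currents that follow a burst of spikes, had a different order. It stood at 70.2 ± 13.5 CPM in migrating neurons (43.5, 72.3 and 81.5) and at 63.7 ± 26.5 in Cajal-Retzius cells (10.6, 73.5 and 92.2). Upper-layer neurons had 41.4 ± 13.1, GABAergic neurons 24.1 ± 11.2, deep-layer neurons 21.9 ± 9.77 and progenitors 19.0 ± 6.08. Upper-layer neurons were above GABAergic neurons in 7 of 7 embryos, while the last 3 gates lay within each other's spread. Migrating neurons thus joined high Hpca to low Ncald (42.0 CPM), and so did Cajal-Retzius cells (Ncald 46.7 CPM). Hpcal1, the closest relative of Hpca with 86.1% coding identity, gave few UMIs in every gate. It too had its highest mean in migrating neurons, at 11.8 ± 3.30 CPM, followed by progenitors at 9.37 ± 1.71, with 4.39 ± 1.66 in upper-layer neurons.

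Hpcal4, which encodes a visinin-like protein, stood at 30.3 ± 17.6 CPM in deep-layer neurons (5.99, 32.3 and 61.4), and its other gates lay between 5.60 ± 2.18 in progenitors and 14.6 ± 8.77 in GABAergic neurons. Vsnl1, which encodes visinin-like protein 1, gave few UMIs in every gate. Its means were 18.8 ± 11.1 in Cajal-Retzius cells, 16.7 ± 13.3 in deep-layer neurons and 10.8 ± 6.84 in GABAergic neurons, against 6.14 ± 5.59 in upper-layer and 3.91 ± 1.63 in migrating neurons. For both genes neighbouring gates in this order overlapped widely. Hpcal4 and Vsnl1 share 82.1% of their coding bases.

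Ncs1, the frequenin gene, whose product binds the lipid kinase encoded by Pi4kb and acts at synaptic terminals, stood at 159 ± 18.4 CPM in deep-layer, 148 ± 22.3 in upper-layer, 134 ± 20.2 in Cajal-Retzius, 121 ± 21.1 in migrating and 109 ± 34.2 in GABAergic neurons. The neuron types lay within their spread of the next in order. Progenitors had 65.3 ± 10.49 and were below GABAergic neurons in 7 of 7 embryos.

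Necab1 was the sensor tied most tightly to a gate. It stood at 116 ± 51.2 CPM in deep-layer neurons (47.1, 113 and 211), which were its highest gate in 7 of 7 embryos. Upper-layer neurons had 16.5 ± 5.81 and GABAergic neurons 15.9 ± 8.01, and Cajal-Retzius cells had UMIs in 3 of 7 embryos. Necab2, whose product binds the metabotropic glutamate receptor encoded by Grm5, was near the detection limit. Its mean was 9.08 ± 3.56 CPM in progenitors and 5.22 ± 2.74 in upper-layer neurons, and deep-layer neurons gave 1 UMI. Calm2, a calmodulin gene, stood at 1143 ± 133 CPM in deep-layer neurons (1013, 1130 and 1381) and was highest there in 6 of 7 embryos. Progenitors had its lowest mean, 478 ± 97.1.

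**Figure D1:**
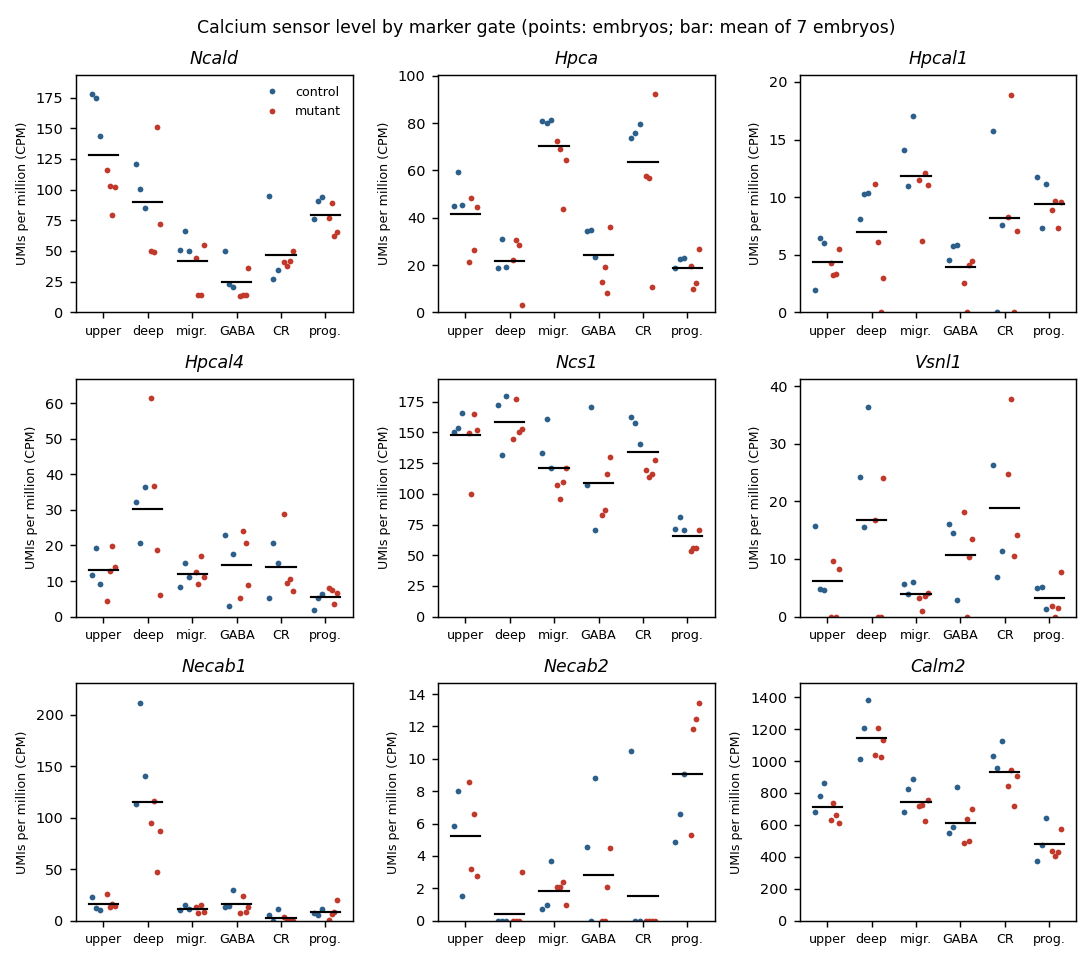
Level of each of the 9 sensor genes in 6 marker gates, in CPM of the UMIs of the gate on a linear axis per gene. Points are embryos, control on the left and mutant on the right of each gate, and the bar is the mean of 7 embryos: Ncald was highest in upper-layer neurons (128 CPM), Hpca in migrating neurons (70.2) and Necab1 in deep-layer neurons (116).

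Paired tests within embryos put these differences on a common footing. In glutamatergic against GABAergic neurons, edgeR called 29.5% of all genes tested at an adjusted p under 0.05 (15.6% higher and 13.9% lower). Of the sensors, 8 had enough UMIs to be tested. Of these, 5 were higher in glutamatergic neurons and 0 lower. Ncald, Necab1, Hpcal1, Hpcal4 and Vsnl1 had enough UMIs for a fit by genotype within glutamatergic neurons but not within GABAergic neurons. They may thus have entered the test through the glutamatergic gate, so the count is a description. Ncald led with a log2 difference of 1.49 (SE 0.19, adjusted p = 2.78e-10), a 2.80-fold higher level. Hpca was higher by 1.19 (adjusted p = 8.24e-07), Necab1 by 1.03 (adjusted p = 0.000548), Calm2 by 0.38 (adjusted p = 1.17e-07) and Ncs1 by 0.31 (adjusted p = 0.0202). The difference of Ncs1 was not called by DESeq2 (adjusted p = 0.079), with gates of at least 3 UMIs (0.095), with thinning to 1000 UMIs per cell (0.097), or without control 14 (0.073) or control 16 (0.14), and that of Necab1 was not called with thinning (log2 0.74, adjusted p = 0.20). Hpcal1 had 1.05 (adjusted p = 0.085), Hpcal4 0.07 (adjusted p = 0.89) and Vsnl1, with a higher mean in GABAergic neurons, −0.79 (adjusted p = 0.13).

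Within the cortical plate the sensors divided between the layers. In upper-layer against deep-layer neurons, 19.4% of all genes tested were called (9.17% higher and 10.2% lower), and 6 sensors were tested. Hpca, by 1.12 on the log2 scale (SE 0.27, adjusted p = 0.00111), and Ncald, by 0.63 (SE 0.15, adjusted p = 0.000687), were higher in upper-layer neurons. Necab1 was lower there by a log2 difference of −2.95 (SE 0.22, adjusted p = 3.14e-19), which is 7.75-fold. Hpcal4 had −1.11 (adjusted p = 0.0207) and Calm2 −0.67 (adjusted p = 1.2e-12), both called, and Ncs1 had −0.07 (adjusted p = 0.78), with a 95% interval of −0.31 to 0.18. In all, 5 of 6 were called, beside 19.4% of all genes. Hpca had enough UMIs for a fit by genotype within the upper-layer gate but not within the deep-layer gate. For Necab1 and Hpcal4 it was the reverse. These sensors may thus have entered the test through the gate where they were high, so the count is a description. Ncald was no longer called among cells with at most 5% mitochondrial UMIs (log2 0.39, adjusted p = 0.11) or after thinning to 1000 UMIs per cell (0.47, adjusted p = 0.26). Hpcal4 lost its call with DESeq2 (adjusted p = 0.14), with the lower mitochondrial limit (0.12) and without mutant 10 (0.12), control 14 (0.061) or control 16 (0.17).

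Mutant and control embryos were then compared. Values by embryo are CPM scaled by the trimmed mean of M values (TMM), in the order of mutants 10, 11, 12 and 17 and controls 14, 15 and 16. Where genotype groups are said not to overlap, this describes the embryos only. The share of all genes without overlap was not counted, so how unusual it is cannot be told. As Ncald was chosen for this contrast, its values are a description and carry no p. In glutamatergic neurons it stood at 50.7, 46.3, 35.5 and 64.7 CPM in mutants and at 83.6, 108 and 89.9 in controls. Every mutant was below every control, with means of 49.3 ± 12.1 and 93.8 ± 12.7 and a log2 difference of −0.91 (SE 0.16), a level 1.89-fold lower. In sums over cells, fewer cells of a type that carries a gene and less RNA per cell cannot be told apart.

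Further values by genotype are given here, and their part in the level of Ncald was not tested except where a value follows. Migrating cells made up 36.0% ± 2.57 of the glutamatergic neurons of mutants, against 29.8% ± 2.50 in controls (two-sided exact permutation p = 0.0286, the smallest the design allows, adjusted p = 0.171 over 18 shares). The deep-layer share was 6.36% ± 1.68 and 9.32% ± 1.53 (exact permutation p = 0.0857, adjusted p = 0.257). The held-out deep-layer markers, 5 genes, summed to 537 to 756 CPM in mutants and 820 to 883 in controls, and the held-out upper-layer markers to 337 to 473 and 458 to 589. The median mitochondrial share of glutamatergic neurons was 3.87% ± 0.397 in mutants and 4.72% ± 0.617 in controls, and that of progenitors ran from 3.46% to 4.11% and from 4.21% to 5.80%, with no overlap. Summed CPM of held-out erythroid markers ran from 891 to 1762 in mutants and from 513 to 2685 in controls. The finer gates, and the cells in none of them, were also given the same weight in every embryo. With these weights Ncald stood at 52.5 ± 8.98 CPM in mutants and 91.6 ± 10.4 in controls. The log2 difference was −0.80, against −0.93 without the weights on the same scale. Cells with no finer gate held 43.5% of the weight, and their own mix of types was not held fixed.

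**Figure D2:**
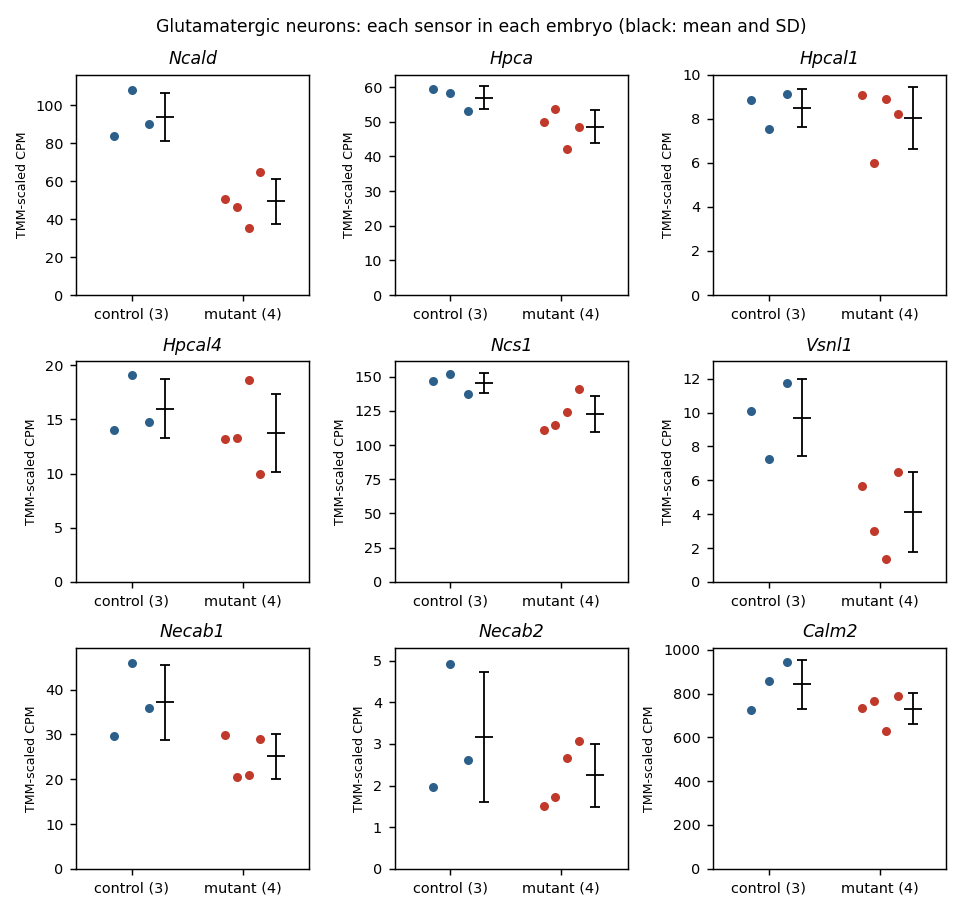
TMM-scaled CPM of the 9 sensor genes in glutamatergic neurons of each embryo, with a linear axis per gene, controls (n = 3) on the left and mutants (n = 4) on the right. Points are embryos, and lines show the mean and SD: for Ncald and Vsnl1 the points of the genotypes do not overlap, and for the other genes they do. The share of all genes without such overlap was not counted.

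By gate, Ncald stood in upper-layer neurons at 125, 108, 85.0 and 110 CPM in mutants and at 191, 182 and 150 in controls, with no overlap and a log2 difference of −0.71. In migrating neurons it stood at 45.3, 14.4, 14.6 and 56.3 against 52.0, 67.0 and 50.1, where mutant 17 lay among the controls (log2 −0.75). In deep-layer neurons it stood at 55.5, 51.6, 164 and 78.0 against 128, 106 and 87.8. Mutant 12 was there the highest embryo of all, from 16 UMIs, and the log2 difference was −0.40. Progenitors had 78.6, 87.8, 62.9 and 67.2 against 77.8, 92.2 and 95.1, which overlapped (log2 −0.27). GABAergic neurons had 14.3, 15.1, 15.5 and 38.1 against 54.1, 24.3 and 21.7 from 3 to 22 UMIs per embryo, too few for the fit within that gate. In the joint fit of both neuron classes the genotype difference of Ncald in glutamatergic minus GABAergic neurons was −0.10 (SE 0.43), and in upper-layer minus deep-layer neurons −0.28 (SE 0.32). Both are smaller than their standard errors. The share of glutamatergic neurons with a Ncald UMI at 1000 UMIs per cell was 3.23%, 3.60%, 3.15% and 4.76% in mutants and 6.11%, 7.90% and 7.09% in controls, without overlap. Without thinning, and over all glutamatergic neurons, it was 7.33% ± 1.956 and 14.6% ± 1.32.

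**Figure D3:**
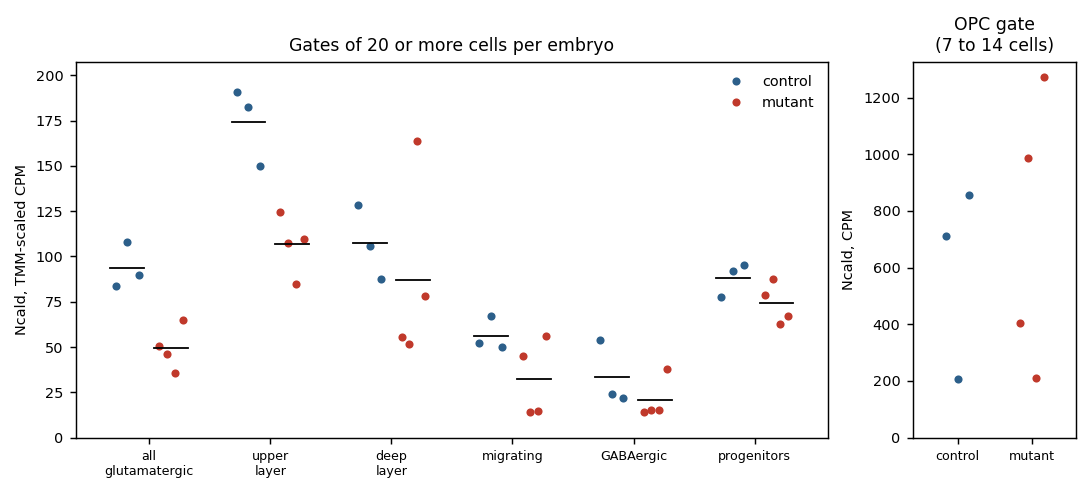
Ncald by gate and genotype, as TMM-scaled CPM per embryo on a linear axis, with oligodendrocyte precursors drawn separately in CPM. Points are embryos: all mutants lie below all controls in upper-layer neurons (85.0 to 125 against 150 to 191), and the genotypes overlap in deep-layer and migrating neurons, progenitors and oligodendrocyte precursors.

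For the 8 other sensors none of the differences between genotypes was called by edgeR in any of the 8 groupings of cells. In glutamatergic neurons 7 were tested, and 7 of 7 had a negative log2 difference with a median of −0.23, beside 49.8% of all genes. At an unadjusted p under 0.05 there were 3 of them, Vsnl1, Necab1 and Ncs1, beside 11.9% of all genes, and 0.0633% of all genes were called. DESeq2 and limma-voom called none of these sensors in glutamatergic neurons either.

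Vsnl1 had the largest difference of the 8. It stood at 5.67, 2.999, 1.33 and 6.50 CPM in mutants and at 10.1, 7.24 and 11.8 in controls, from 3 to 54 UMIs per embryo. The groups did not overlap, and the log2 difference was −1.19 (SE 0.36, adjusted p = 0.25). It was called when no filter on low counts was used (log2 −1.20, adjusted p = 0.025). In all cells it stood at 5.69, 4.06, 3.97 and 6.12 against 10.46, 7.09 and 8.81, again with no overlap (log2 −0.82, SE 0.24, adjusted p = 0.32).

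Hpca, one of the 2 nearest relatives of Ncald, stood in glutamatergic neurons at 49.9, 53.5, 42.2 and 48.6 CPM in mutants and at 59.4, 58.2 and 53.1 in controls. Mutant 11 lay just above control 16, and the log2 difference was −0.23 (SE 0.13, adjusted p = 0.50, 95% interval −0.48 to 0.03). In migrating neurons, its highest gate, Hpca stood at 74.4, 68.8, 43.9 and 65.5 against 83.1, 81.2 and 82.3. There the groups did not overlap, with a log2 difference of −0.37 (SE 0.17, adjusted p = 0.54). Hpcal1, the other, had 9.08, 5.997, 8.88 and 8.21 against 8.87, 7.53 and 9.14, which overlapped throughout (log2 −0.08, 95% interval −0.58 to 0.41, adjusted p = 0.92). Hpcal4 had 13.2, 13.3, 18.7 and 9.92 against 14.1, 19.1 and 14.8 (log2 −0.22, adjusted p = 0.75).

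Ncs1 stood at 111, 115, 124 and 141 CPM in mutants and at 147, 152 and 137 in controls, and only mutant 17 reached the controls. Its log2 difference was −0.24 (SE 0.11, adjusted p = 0.42), with an interval of −0.47 to −0.02. Calm2 stood at 735, 767, 630 and 790 against 725, 859 and 944, with control 14 among the mutants (log2 −0.21, adjusted p = 0.52). Necab2 had 4 to 17 UMIs per embryo in glutamatergic neurons and was not tested there.

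Necab1 stood at 29.9, 20.6, 20.9 and 29.1 CPM in mutants and at 29.6, 46.1 and 35.9 in controls, where control 14 lay within the mutants. The log2 difference was −0.55 (SE 0.19, adjusted p = 0.28). With the finer gates, and the cells in none of them, weighted alike in every embryo it was −0.39 in place of −0.54 on the same scale. Deep-layer neurons, its highest gate, had a lower mean share of the glutamatergic neurons in mutants (exact permutation adjusted p = 0.257). The embryos overlapped in that share (mutant 17 at 8.86%, control 14 at 7.58%). Beyond these weights, its part in the level of Necab1 was not tested. Within deep-layer neurons Necab1 had 105, 122, 51.1 and 94.2 against 120, 222 and 145. Mutant 11 passed control 14 narrowly, and the log2 difference was −0.74 (SE 0.25, adjusted p = 0.58). Over all cells Necab1 had 16.6, 14.2, 12.7 and 20.8 against 22.1, 28.6 and 27.5, with no overlap (log2 −0.70, SE 0.18, adjusted p = 0.32). That difference was called by limma-voom with quality weights (log2 −0.76, adjusted p = 0.040) and by edgeR with no filter on low counts (−0.72, adjusted p = 0.011).

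Over all cells the 8 sensors besides Ncald were all tested. All 8 had a negative log2 difference, with a median of −0.25, beside 49.5% of all genes, and 0 were called by edgeR, beside 0.0233% of all genes. At an unadjusted p under 0.05 there were 3 (Vsnl1, Necab1 and Ncs1), beside 10.47% of all genes. DESeq2 called 0 of them. Ncald stood at 55.7, 55.1, 42.5 and 64.9 CPM against 81.3, 87.9 and 82.6, with no overlap and a log2 difference of −0.62. Hpca had 43.3, 41.9, 30.3 and 45.3 against 51.9, 46.7 and 46.8, with every mutant below every control (log2 −0.27, adjusted p = 0.52). Ncs1 had a log2 difference of −0.30 (adjusted p = 0.40), Calm2 −0.23, Hpcal1 −0.21, Necab2 −0.05 and Hpcal4 −0.01. Glutamatergic neurons, in which 5 of the 9 sensors were higher than in GABAergic neurons, made up 35.2% ± 2.00 of mutant cells and 41.1% ± 4.69 of control cells (exact permutation p = 0.0286, adjusted p = 0.171). Upper-layer neurons made up 5.22% ± 0.665 and 7.17% ± 0.323 (same p values). The part of these shares in the differences over all cells was not tested.

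In the finer gates fewer sensors could be tested. Upper-layer neurons had 3, all negative, with Hpca at −0.45 (SE 0.30, adjusted p = 0.75), Calm2 at −0.21 and Ncs1 at −0.13, beside 0% of all genes called. Deep-layer neurons had 4, all negative, 1 of them (Necab1) at an unadjusted p under 0.05, beside 6.78% of all genes, with 0.0787% called. Migrating neurons had 6, of which 5 were negative and 2, Hpca and Ncs1 (−0.35, adjusted p = 0.47), had an unadjusted p under 0.05, beside 8.96% of all genes, with 0.0437% called. GABAergic neurons had 3, all negative, with Hpca at −0.87 (SE 0.47, adjusted p = 0.73), beside 0.076% called. The interneurons among them had 2, also all negative, beside 0.0426%. Progenitors had 5, of which 4 were negative and Necab2 was positive at 0.60 (SE 0.40, adjusted p = 0.94), beside 0% called. Of all genes tested in these gates, between 48.4% (deep-layer neurons) and 50.9% (progenitors) were negative. Whether glutamatergic and GABAergic neurons differed in their genotype effect was tested too, and 0 of 7 sensors were called (0 at an unadjusted p under 0.05, beside 0.0832% of all genes called). Between upper-layer and deep-layer neurons the effect differed in 0 of 5 (0 unadjusted, beside 0.0261%). The smallest p values there were those of Vsnl1 in the first (−1.26, SE 0.74) and Necab1 in the second (0.96, SE 0.51).

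**Figure D4:**
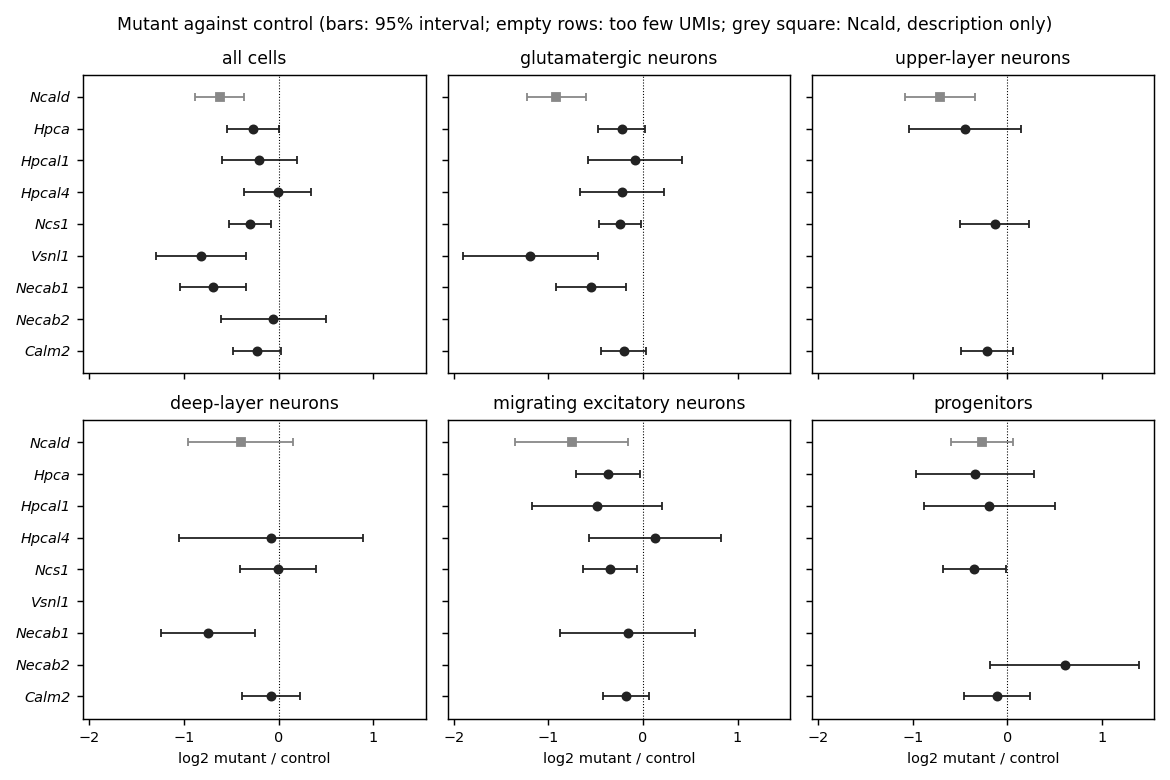
Log2 difference, mutant against control, of each sensor in 6 groupings of cells, from edgeR, with a line at 0. Bars are an approximate 95% interval, the difference ± 1.96 SE, which is narrower than the edgeR test implies. Ncald (grey square) is a description, rows without a point had too few UMIs, and none of the other sensors passed an adjusted p of 0.05; in glutamatergic neurons the points run from −1.19 (Vsnl1) to −0.08 (Hpcal1).

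The wider calcium pathway was read from 7 lists with 51 genes: other family members, calmodulin and other EF-hand sensors, calcium buffers, calmodulin-binding buffers, calmodulin-dependent kinases, calcineurin, and partners of the sensors. In glutamatergic neurons 42 of them were tested and 0 called, with 34 negative and a median log2 difference of −0.17, beside 49.8% negative over all genes. At an unadjusted p under 0.05 there were 8 lower and 1 higher, beside 11.9% of all genes. In the other gates a smaller share of the listed genes was negative, but some medians were as low or lower. Of those tested, 14 of 25 were negative in upper-layer neurons (median −0.0043) and 13 of 28 in deep-layer neurons (median 0.036). In migrating neurons 20 of 31 were negative (median −0.17) and in progenitors 19 of 34 (median −0.056). In GABAergic neurons it was 17 of 26 (median −0.19), and in the interneurons among them 11 of 20 (median −0.21). The 6 calmodulin-binding buffers were all negative in glutamatergic neurons (median −0.44), 4 of them at an unadjusted p under 0.05. Their median was −0.39 both in GABAergic neurons (3 of 4 negative) and in progenitors (4 of 5 negative). They include Nrgn, neurogranin, which holds calmodulin at rest in dendrites (log2 −1.02), and Marcksl1, a membrane substrate of protein kinase C (−0.40).

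The calcium-calmodulin kinases were negative in 10 of 10 in glutamatergic neurons (median −0.17) and in 6 of 8 in migrating neurons (median −0.19). They were negative in 3 of 6 in upper-layer, 2 of 7 in deep-layer and 2 of 5 in GABAergic neurons, and in 4 of 10 in progenitors. Among them were Camkk2 and Camk1d, an upstream and a downstream kinase of 1 cascade, both at −0.31 in glutamatergic neurons. In glutamatergic neurons the calcineurin list, the calcium-dependent phosphatase with its regulators, was negative in 7 of 7 (median −0.20). The catalytic subunits Ppp3ca and Ppp3cb stood there at −0.37 and −0.20. The list was negative in 3 of 4 in upper-layer, 2 of 5 in deep-layer and 4 of 5 in migrating neurons. In GABAergic neurons 5 of 6 were negative, and in progenitors 3 of 5. In glutamatergic neurons 5 of 8 calmodulin and other EF-hand sensors were negative, with Caln1 at −0.86. Of the other family members, which bind potassium channels, 3 of 4 were negative, with Kcnip4 at −0.75 and Kcnip2 at −0.29. The buffers had 2 of 3 negative (S100a10 −0.43, Calb2 0.28) and the partners 1 of 4 (Grm5 −0.35, Pi4kb 0.32). The adjusted p of these named genes ran from 0.21 to 0.77 in edgeR.

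Between cell types the same lists differed widely. In glutamatergic against GABAergic neurons 20 of 40 tested were higher and 10 lower, beside 29.5% of all genes called. Camk2b, a subunit of the main synaptic calmodulin kinase, was higher by 2.16 on the log2 scale (edgeR adjusted p = 1.64e-35), and the buffer calbindin, Calb1, had −4.14 (adjusted p = 1.46e-20). In upper-layer against deep-layer neurons 2 of 33 were higher and 16 lower, beside 19.4% called. The potassium channel partner Kcnip2 had −5.18 (adjusted p = 1.4e-08) and Grm5 −1.99 (adjusted p = 8.56e-17). Grm5 and Kcnip2 were thus on the deep-layer side with Necab1, Hpcal4 and Calm2, opposite to Ncald and Hpca. Camk2b, Calb1, and the layer values of Kcnip2 and Grm5 were picked after their values were seen.

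The genes whose levels ran most like Ncald were sought over 36 sums of embryo and gate (upper-layer, deep-layer, migrating, interneuron, striatal and progenitor), among 7669 genes with a mean of at least 20 CPM. Pearson's r on log2 CPM was 0.855 for Ppp1r1a, an inhibitor of protein phosphatase 1, then 0.798 for Cetn2 and 0.773 for Cetn3, centrin genes of the EF-hand superfamily that act at centrioles. It was 0.788 for Trim37, 0.766 for Rpl22, a ribosomal protein gene, and 0.765 for Arl6, a ciliary GTPase gene. The sums share libraries and genotypes and differ in depth, and 1 of them, striatal with no Ncald UMI, lay far from the rest. Without it, a variant chosen after seeing the data, r was 0.812 for Ppp1r1a, still the highest of all genes, and the other 5 fell to ranks 5 to 25. The 8 other sensors ran from 0.41 for Hpcal1 and 0.39 for Hpca to −0.11 for Hpcal4. The 6 genes were picked as the highest, so their place above the sensors is no result. Hpcal1 (mean 6.67 CPM), Vsnl1 (7.65), Necab2 (3.97) and Hpcal4 (16.3) were also under the 20 CPM required of other genes.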

How the data were processed

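The authors deposited 1 table of whole-number UMI counts per library (genes by cell barcodes, not normalised), per the labels made with the Seq-Well assay. STAR and the mm10 build are named in the submitters' processing notes. Which STAR version, annotation, strand setting and barcode rule were used is not given in the sources used here. Genotype was taken from the sample titles.

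Barcodes with at least 500 detected genes and at most 10% mitochondrial UMIs were kept, and no doublet caller was run. Cells were gated by marker lists (at least 2 UMIs, other lists at most 0.5 times as many). Raw counts were summed per embryo and gate (at least 20 cells) and fitted in edgeR 4.0.16 (R 4.3.3) with TMM, filterByExpr and the quasi-likelihood test, two-sided. P-values were adjusted by Benjamini-Hochberg over all genes tested, with a threshold of 0.05. Gate contrasts had the embryo as a fixed term. The scripts were tested on simulated data. DESeq2 1.42.0, limma 3.58.1 and other filters and gates were alternatives. Coding sequences and positions came from GENCODE vM21.

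The 9 genes and the lists were chosen with earlier results of these data known, and Ncald for its genotype difference. Named genes were the 9 sensors, Ash1l, the 6 genes most like Ncald, and 2 genes per pathway list with the smallest p in glutamatergic neurons, of which 1 is not reported here. The symbols Drd1 and Ric8a had no row.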

Additional observations from a re-analysis of the deposited data

Results flagged for a closer look

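Within the 4 mutant embryos, 7 of 71 sets of values of a sensor in a gate had 1 embryo farther from the others than Dixon's 95% critical value for 4 samples allows. Chance alone gives about 1 in 20 for independent sets. These sets share embryos and cells, and 2 of the 7 hold 1 UMI against 0, so that rate is not theirs. Mutant 17 was that embryo in 5 of them. For Hpcal4 over all cells it stood at 9.64 CPM (63 UMIs), with the others at 13.1 to 13.6. For Ncs1 in progenitors it stood at 72.2 (73 UMIs), with the others at 54.2 to 56.2. For Ncald in GABAergic neurons it stood at 38.1 (8 UMIs), with the others at 14.3 to 15.5, and for Hpca in interneurons at 37.8 (4 UMIs), with the others at 8.69 to 12.8. For Necab2 in deep-layer neurons its 3.25 CPM came from 1 UMI, with the others at 0.

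Mutant 11 had 6.16 CPM of Hpcal1 in migrating neurons (6 UMIs), with the others at 11.3 to 12.2. Mutant 12 had 6.38 CPM of Necab2 in interneurons from 1 UMI, with the others at 0.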

How the results depend on the processing

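No paired analysis was possible because mutant and control embryos share no replicate number. Of 860 values of single sensors under an alternative, 790 kept direction and call, and 39 changed direction, none of them called before or after. Depth limits Necab2, Vsnl1, Hpcal1 and all sensors in GABAergic gates, where single UMIs move a value. Leaving out 1 embryo at a time changed no count between genotypes (0 to 0), but moved glutamatergic against GABAergic (4 to 5) and upper-layer against deep-layer calls (4 to 5).

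The count of sensors called between genotypes rose from 0 to 1 over all cells with limma-voom (Necab1) and with no filter on low counts (Necab1), and from 0 to 1 in glutamatergic neurons with no filter (Vsnl1). Between glutamatergic and GABAergic neurons it fell from 5 to 3 with thinning to 1000 UMIs, which also left out the cells with fewer UMIs. Between layers it fell from 5 to 3 with at most 5% mitochondrial UMIs and to 2 with thinning. The difference in glutamatergic cells with a Ncald UMI was −3.35 percentage points at 1000 UMIs and −2.04 at 700, each among cells with at least that many UMIs. The cause of these changes was not tested. The log2 difference of Ncald in glutamatergic neurons ran from −1.12 to −0.79 over 17 alternatives.

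Direction changed as follows, in log2. DESeq2 gave Hpcal4 0.027 in deep-layer neurons. Limma-voom gave Ncs1 0.032 in deep-layer neurons and Hpcal4 −0.026 in glutamatergic against GABAergic neurons. Gates with no UMI of another list gave Ncs1 0.076 in GABAergic neurons, and Ncald 0.10 and Calm2 0.022 in progenitors. At least 300 genes gave Necab2 0.022 over all cells. At least 1000 genes gave Hpcal1 0.0080 in glutamatergic neurons, Hpcal4 −0.033 against GABAergic neurons and Ncs1 0.033 between layers. At most 5% mitochondrial UMIs gave Necab2 0.12 over all cells and Hpcal1 0.043 in glutamatergic neurons. Thinning gave Hpcal4 0.11 over all cells and Ncs1 0.087 in upper-layer neurons.

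Leaving out 1 embryo, Necab2 ran from −0.21 to 0.089 and Hpcal4 from −0.076 to 0.090 over all cells, and Hpcal1 from −0.16 to 0.029 in glutamatergic neurons. Ncs1 ran from −0.22 to 0.016 in upper-layer neurons, from −0.14 to 0.068 in deep-layer neurons, from −0.40 to 0.19 in GABAergic neurons and from −0.59 to 0.037 in interneurons. Calm2 ran from −0.18 to 0.017 in deep-layer neurons, from −0.28 to 0.027 in GABAergic neurons, from −0.29 to 0.038 in interneurons and from −0.27 to 0.12 in progenitors. Hpcal4 ran from −0.78 to 0.50 in deep-layer and from −0.058 to 0.33 in migrating neurons, and Necab1 from −0.35 to 0.0084 in migrating neurons. Between cell types, Hpcal4 ran from −0.18 to 0.27 in glutamatergic against GABAergic neurons and Ncs1 from −0.13 to 0.011 between layers.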
